A study of Mus musculus with 32 samples.

Results

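The comparison described here set 4 arrays of Ba/F3-IL-12Rβ1-IL-23R cells against 4 arrays of Ba/F3-gp130 cells, which are 8 of the 32 arrays in the series. The arrays were those whose sample title carried an even number (14, 16, 18 or 20) in each of these lines. Even numbers were taken because Socs3, a feedback inhibitor that IL-6-type and IL-23 signaling switch on, was low in all even arrays of the series, so the choice itself rests on measured values. The labels of single arrays name the line but not the ligand, and the even arrays are therefore called only by their number. In the study, synthetic cytokine receptors were compared with the natural IL-23 receptor, and the present comparison asks how the line with the natural receptor differed from its parental line where Socs3 was low.

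All cells derived from Ba/F3, a murine interleukin-3-dependent pro-B cell line, and all carried transduced human gp130. The parental Ba/F3-gp130 line carried no further receptor. The natural receptor line carried in addition murine IL-12Rβ1 and murine IL-23R. The other lines of the series, SyCyR(IL-23/2A) and SyCyR(IL-23R), carried receptors in which nanobodies against fluorescent proteins replace the ligand-binding part. Per the labels, all lines were grown with Hyper-IL-6, a fusion of IL-6 with its soluble receptor. Cells were washed, kept without serum for 3 h and incubated for 1 h, with 100 ng/ml as the dose of any ligand. The series holds 1 line for each receptor, made by a transduction and a selection of its own, so that the effect of the receptor cannot be told apart from any other difference that arose between the lines. The methods call the 4 RNA samples behind the arrays independent biological replicates without saying what was independent among them, so p-values measure the spread between these arrays.

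IL-23 is a heterodimeric cytokine of the IL-12 family. It assembles IL-23R, which recruits JAK2 and STAT3, with IL-12Rβ1, which recruits TYK2 and is shared with the IL-12 receptor. Ba/F3 cells themselves grow on IL-3, which binds the IL-3 receptor α chain together with a β chain: Csf2rb, the β chain common to the IL-3, IL-5 and GM-CSF receptors, or the mouse-specific Csf2rb2. A cytokine receptor introduced into Ba/F3 cells can take over the growth signal, which is why the line serves as a test bed for receptors.

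The deposited values were log2 intensities after robust multi-array averaging (RMA) of 35556 probe sets. Within a line, the correlation of the 8 arrays over all probe sets lay between 0.9939 and 0.9959, and between the lines it lay between 0.989 and 0.9925. The array medians were 7.02 to 7.06 in the natural receptor line and 7.08 to 7.10 in the parental line, and the median log2 difference over all probe sets tested was -0.01. Array 18 of both lines was often the lowest of its group for genes of myeloid cells and integrins, as the single values below show, and without both of these arrays 347 probe sets were called higher and 301 lower. Of 18 pro-B cell markers, 7 had a mean above the background level used here, and Pax5, Ebf1, Rag1, Rag2, Dntt and Il7r had medians from 4.64 to 6.54 in both lines, below that level. Of 12 T cell markers none was called, and the mean of that list was 6.23 to 6.29 in the natural receptor line and 6.24 to 6.29 in the parental line. Among 12 reference genes none was called, with differences from -0.07 to 0.21.

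The arrays were chosen by their level of Socs3, and these values are given as a description. Socs3 read 8.40, 8.24, 8.20 and 8.44 in arrays 14, 16, 18 and 20 of the natural receptor line and 8.53, 8.45, 8.51 and 8.66 in those of the parental line. In the odd arrays, which the choice left out, it read 12.76 to 13.01 in the natural receptor line and 8.44 to 8.60 in the parental line. The even values of the natural receptor line were thus all below 8.45 and its odd values all above 12.7, while the parental line read alike under both kinds of number. Of 53 genes in 2 lists that move with this choice, targets of STAT3 and immediate early genes of the ERK pathway, 49 differed by less than 1.5-fold between the lines in the even arrays, with a median of -0.07. In the odd arrays 21 of them did, with a median of 0.75. Nfil3 and Bcl6, both transcriptional repressors and STAT targets, were the members farthest below the parental line in the even arrays, at 8.45 to 8.65 against 9.23 to 9.48 and at 6.72 to 7.20 against 7.87 to 8.08, respectively. These genes stayed in the fit over all genes, but since they follow the choice of arrays their values are given as a description only.

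A probe set was called when limma gave a Benjamini-Hochberg adjusted p under 0.05 over the 23410 probe sets with a gene symbol and the difference was at least 1.5-fold. In the even arrays 323 probe sets were higher in the natural receptor line, which is 1.38% of those tested, and 261 were lower, which is 1.11%, together 2.49%. Of these 584 probe sets, 558 did not overlap between the 4 and 4 arrays, where 7.33% of all probe sets tested lay wholly higher and 7.77% wholly lower. Counted once per gene, 275 of 19938 genes (1.38%) rose and 237 (1.19%) fell, and the median over all genes was -0.01. A further 12146 probe sets carry no symbol and stood outside this count, and of these 59 rose (0.486%) and 221 fell (1.82%). In bulk RNA, a smaller share of cells that express a gene and less RNA of that gene per cell cannot be told apart.

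**Figure D1:**
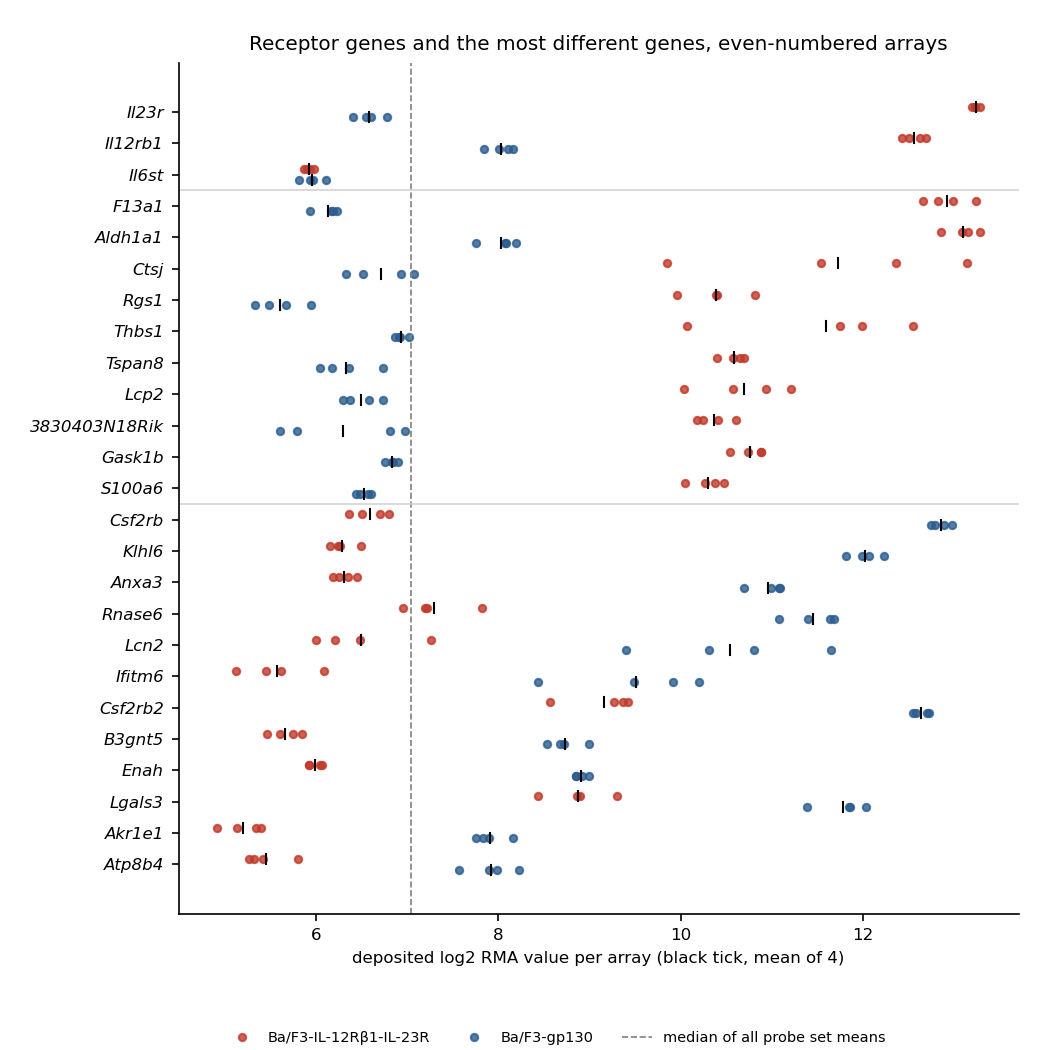
Deposited log2 value (x axis) of each even array for the receptor genes, the 12 genes with the largest positive differences (which hold Il23r and Il12rb1) and the 12 with the largest negative differences. Each gene has 4 red points for the natural receptor line and 4 blue points for the parental line, a black tick marks each mean, and the dashed line marks the background level of 7.04. The groups do not overlap for any gene but Il6st, whose 8 points lie between 5.81 and 6.11.

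Both introduced receptor chains were higher in the natural receptor line. Il23r read 13.23, 13.20, 13.28 and 13.23 in arrays 14, 16, 18 and 20 of the natural receptor line and 6.78, 6.41, 6.55 and 6.60 in the parental line. All 4 parental arrays were thus below 7.04, the median of all probe set means, which served as the background level in place of detection calls. Of 1207 genes for olfactory, vomeronasal and trace amine receptors, which should be silent here, 97.8% had a mean below this level. Where the median of the dimmer line lay below it, the fold change is given as a lower bound, computed with each dim array at 7.04 or at its own value if that was higher. Il23r was so at least 73.2-fold higher, with a measured difference of 6.65 ± 0.07 (SE, n = 4 and 4, limma adjusted p = 1.7e-13). Il12rb1 read 12.63, 12.50, 12.43 and 12.69 against 8.16, 8.11, 7.84 and 8.00, which is 23.2-fold higher (adjusted p = 8.5e-12). Its parental arrays were above the background level. The SyCyR receptors keep the transmembrane and intracellular parts of murine IL-23R, and in SyCyR(IL-23/2A) also those of IL-12Rβ1. The paper reports them on the cell surface. Yet SyCyR(IL-23/2A) and SyCyR(IL-23R) differed from the parental line by -0.26 and -0.35 for Il23r, with no call. For Il12rb1 they differed by 0.17 and 0.17, also with no call. A low value there does not show that these parts were absent. Murine Il6st, the mouse gene for gp130, read 5.86 to 5.98 and 5.81 to 6.11, so the 2 lines overlapped below the background level. The probe set was designed on the mouse gene, and the introduced gp130 was human.

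Of 13 chains and ligands of the IL-12 and IL-6 families measured, these 2 receptor genes were the ones called higher (15.4%, beside 1.38% of all genes), and 2 were called lower (15.4%, beside 1.19%). Il12rb2, the second chain of the IL-12 receptor, read 8.50, 8.52, 8.22 and 8.14 in the natural receptor line and 9.71, 9.54, 9.34 and 9.38 in the parental line, a 2.22-fold lower level (adjusted p = 2.3e-05). Ebi3, the β subunit of IL-27 and IL-35, fell by 1.09 on the log2 scale, from a median of 7.73 to one of 6.57 below the background level (adjusted p = 5.9e-04). The remaining members ranged from -0.11 to 0.25, among them Il27ra at 0.25 and Il6ra at -0.09, and the IL-23 subunit gene Il23a had medians of 6.36 and 6.31.

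Both β chains of the IL-3 receptor fell, and Csf2rb had the largest decrease of any gene. Csf2rb read 6.70, 6.80, 6.36 and 6.50 in the natural receptor line and 12.75, 12.79, 12.88 and 12.98 in the parental line. Its level was at least 56.0-fold lower, and in all 4 arrays of the natural receptor line it lay below the background level (difference -6.26 ± 0.09 SE, adjusted p = 2.5e-12). Csf2rb2 read 9.26, 9.37, 8.56 and 9.42 against 12.55, 12.73, 12.58 and 12.70, which is 11.2-fold lower (adjusted p = 3.8e-08). It stayed above the background level. The 2 genes are near-identical neighbours, so that a probe of one may read some RNA of the other. The private α chains did not follow: Il3ra, which binds IL-3, had medians of 9.73 and 9.76, and Csf2ra, which binds GM-CSF, had medians of 7.70 and 8.20 and was not called (-0.49). Ncf4, the measured gene before Csf2rb2 on chromosome 15, differed by -0.09. On the other side, past Csf2rb and the uncalled Tex33, Tst was called in the opposite direction. It was higher by 1.61 in the even arrays and by 1.44 in the odd arrays. Against SyCyR(IL-23/2A) and SyCyR(IL-23R), Csf2rb was lower by -6.21 and -6.00 and Csf2rb2 by -3.33 and -3.21, and all 4 differences were called. The decrease of both β chains therefore separated the natural receptor line from each of the 3 other lines. The SyCyR lines differed from the parental line by -0.05 and -0.26 for Csf2rb and by -0.16 and -0.27 for Csf2rb2, with no call.

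Of 25 further cytokine receptor chains, 3 were called lower (beside 1.19% of all genes) and none higher (beside 1.38%) in the even arrays. Both chains of the IL-18 receptor were among them. Il18r1, the ligand-binding chain, read 7.93, 7.54, 8.13 and 8.09 against 9.57, 9.61, 9.34 and 9.81, which is 3.16-fold lower. Il18rap, the accessory chain, read 9.61 to 9.90 against 10.45 to 10.97, which is 2.01-fold lower (adjusted p = 5.6e-05). In the odd arrays Il18r1 was also called, with -0.98, but Il18rap, with -0.34, was not. Ifngr2, a chain of the interferon-γ receptor, lay at the edge of the 1.5-fold limit with -0.60 and lost its call without any of 4 single arrays. It lies on chromosome 16, as do Ifnar1, Ifnar2 and Il10rb, which differed by -0.46, -0.33 and -0.42.

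Of 22 coagulation and fibrinolysis genes, 4 rose (18.2%, beside 1.38% of all genes) and 1 fell (4.55%, beside 1.19%), with a list median of -0.03. F13a1, the A subunit of coagulation factor XIII, which crosslinks fibrin, had the largest difference of any gene. It read 12.99, 13.24, 12.65 and 12.82 in the natural receptor line and 5.94, 6.17, 6.19 and 6.23 in the parental line, where every array was below the background level. It was at least 59.0-fold higher, with a measured difference of 6.80 ± 0.11 (SE, adjusted p = 4.2e-12). F2, prothrombin, was 1.82-fold and F2rl3, a thrombin receptor of platelets, at least 1.83-fold higher. F2 was called against SyCyR(IL-23R) (1.24) but not against SyCyR(IL-23/2A) (0.33). The fourth, Tfpi, the inhibitor of the tissue factor pathway, read 6.75 to 7.05 against 6.05 to 6.17, mostly below the background level, and no fold is given. In the other direction F5, the cofactor of factor Xa, read 5.96, 5.76, 5.79 and 5.97 against 8.55, 8.23, 7.86 and 7.99, at least 2.17-fold lower.

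Thbs1, thrombospondin 1, a matrix glycoprotein of platelets, read 11.99, 12.55, 10.07 and 11.75 against 6.86 to 7.02. Array 18 was the lowest of the natural receptor line and still 3 log2 units above every parental array, and the gene was at least 23.4-fold higher (4.66 ± 0.39 SE, adjusted p = 1.1e-05). Sparc, a matrix glycoprotein named here after its value was seen, read 9.98 to 10.61 against 6.80 to 7.06 and was at least 9.47-fold higher. Gp9, a subunit of the von Willebrand factor receptor of platelets, was 3.29-fold higher at 10.41, 10.83, 8.89 and 9.68 against 8.45, 8.43, 7.80 and 8.25. It was the single called member of 11 erythroid and megakaryocyte markers (9.09%, beside 1.38% of all genes). The median of that list was -0.03, its lowest difference was -0.45, and 5 of the 11 differences were positive. P2ry1, an ADP receptor of platelets, was 3.76-fold higher. Of 15 purinergic and adenosine receptors measured, 2 rose (13.3%, beside 1.38% of all genes) and 2 fell (13.3%, beside 1.19%), with a median of -0.04. P2ry14 was the other that rose, and P2rx4 and P2rx7 fell. Of 24 integrins 3 were called, all higher (12.5%, beside 1.38% of all genes): Itgb3, the β3 chain of the platelet fibrinogen receptor (at least 2.33-fold), Itga6 (1.65-fold) and Itgb2, the leukocyte β2 chain (3.61-fold). Itgb2 read 9.88, 10.72, 8.12 and 9.54 against 8.01, 8.41, 6.77 and 7.67. Its groups overlapped, array 18 was the lowest in both lines, and the call was lost without any of 4 single arrays. Against both SyCyR lines F13a1, Thbs1, Sparc, Gp9, P2ry1 and Itgb3 were called higher too, by 6.72, 4.74, 3.45, 1.76, 2.05 and 1.61 against SyCyR(IL-23/2A) and by 6.93, 4.62, 3.48, 1.34, 1.86 and 1.64 against SyCyR(IL-23R). Itga6 was called against neither SyCyR line (0.28 and 0.13), and SyCyR(IL-23R) itself was called above the parental line for it, by 0.59.

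Adaptors of immune receptor signaling moved in both directions. Of 19 genes of B cell receptor signaling, 3 rose (15.8%, beside 1.38% of all genes) and 3 fell (15.8%, beside 1.19%), with a median of 0.01. Klhl6, a ubiquitin ligase adaptor that germinal center B cells need, read 6.49, 6.15, 6.24 and 6.26 in the natural receptor line and 11.99, 11.82, 12.23 and 12.07 in the parental line. It was at least 31.6-fold lower (-5.74 ± 0.09 SE, adjusted p = 4.2e-12) and lay below the background level in every array of the natural receptor line. Pik3ap1, the adaptor that couples the B cell receptor to PI3K, was 1.80-fold lower, and Fcgr2b, the inhibitory IgG receptor, 2.33-fold lower. The members that rose were Bank1, Cd37 and Ptpn6, and without natural array 14 or parental array 18 only 1 of them was called. Bank1, a B cell scaffold protein, read 8.37, 8.96, 7.02 and 8.14 against 5.79 to 6.24, with array 18 at the background level. The tetraspanin Cd37 was 1.63-fold higher but lost its call without any of 4 single arrays. Cd79a, the Igα chain of the B cell receptor, was the single called member of the 18 pro-B cell markers, at 2.14-fold higher, and it was not called against SyCyR(IL-23/2A), which itself was 0.83 above the parental line.

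Lcp2, the adaptor SLP-76 that organizes signaling below ITAM receptors, read 10.94, 11.20, 10.04 and 10.57 against 6.37, 6.73, 6.58 and 6.29 and was at least 12.5-fold higher (4.20 ± 0.20 SE). In SyCyR(IL-23R) it was 1.79 above the parental line, so that the difference between the natural receptor line and that line was 2.40, also called. Adaptors named after their values were seen showed both directions: Sla, a negative regulator of antigen receptor signaling, was 6.96-fold higher, whereas Lat2, a membrane adaptor of B and mast cells, was 5.15-fold lower and Clnk, which binds SLP-76, was 3.39-fold lower. Lat2 read 7.60 to 7.69 against 9.79 to 10.12, so both groups were tight. Ptpn6, the phosphatase SHP-1 that dampens cytokine receptor signaling, was the single called member of 27 JAK-STAT transducers and inhibitors (3.7%, beside 1.38% of all genes). It was 1.53-fold higher and lost its call without natural array 14 or parental array 18. The median of that list was 0.03.

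Several genes of myeloid effector proteins fell. Of 19 granulocyte and macrophage markers, 3 were called lower (15.8%, beside 1.19% of all genes) and none higher, with a list median of -0.02. The mean of the list was 6.48 to 6.65 in the natural receptor line and 6.63 to 6.80 in the parental line, and the defining markers Itgam, Lyz2, Csf1r and Adgre1 had medians from 5.47 to 6.51 in both lines, below the background level. Mpo, the myeloperoxidase of neutrophil granules, read 7.04, 7.70, 6.92 and 7.20 against 10.05, 9.83, 8.73 and 10.05, which is 5.47-fold lower. Parental array 18 was far below the other parental arrays but above all arrays of the natural receptor line. Mpo was also called lower in SyCyR(IL-23R) than in the parental line (-1.92), and the natural receptor line was not called against SyCyR(IL-23R) (-0.54). Ctsg, cathepsin G, read 5.40 to 5.95 against 7.92, 7.59, 5.97 and 6.93, and Cd68, a lysosomal glycoprotein, fell by 0.62 with overlapping groups, and each lost its call without any of 3 single arrays. Without parental array 16 only 1 of the 3 markers was called. Lcn2, an iron-sequestering lipocalin, had a median of 6.35 and a highest array of 7.26 against 10.80, 11.65, 9.39 and 10.31, at least 10.9-fold lower (adjusted p = 3.9e-05). Rnase6, a secreted antimicrobial ribonuclease, was 17.8-fold lower at 6.95 to 7.81 against 11.08 to 11.68. Lgals3, galectin 3, was 7.50-fold lower at 8.43 to 9.30 against 11.38 to 12.04. Ifitm6, a member of the interferon-induced transmembrane family, was at least 5.53-fold lower at 5.12 to 6.09 against 8.44 to 10.20.

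Of 24 Fc and Ig-like myeloid receptors, 4 fell (16.7%, beside 1.19% of all genes) and 1 rose (4.17%, beside 1.38%), with a median of -0.11. Without natural array 18 the list held 3 lower and 3 higher calls, over all 8 arrays of each line 4 lower and 3 higher, and without parental array 16 it held 2 higher. Tarm1, an activating receptor of myeloid cells, was 3.13-fold lower, and Clec12a, an inhibitory lectin of granulocytes and monocytes, 3.05-fold lower. Fcgr2b, described above, was also among them, and Tyrobp, the ITAM adaptor DAP12, fell by 0.93 with overlapping groups (adjusted p = 0.038) and lost its call without any of 6 single arrays. Clec4d, an activating lectin, rose by 0.85 but was -0.67 against SyCyR(IL-23R), also called. Of 27 chemokines and receptors, Ccr2, the monocyte receptor for CCL2, was the single call. It read 10.64, 11.10, 10.30 and 10.61 against 8.91, 8.85, 8.61 and 8.74 and was 3.69-fold higher, and it was called against both SyCyR lines, by 2.09 and 1.95. None of 16 mast cell and basophil markers was called, with a median of -0.12.

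Among the remaining genes with the largest differences, Anxa3, a calcium-dependent phospholipid-binding protein, was at least 15.1-fold lower at 6.19 to 6.45 against 10.69 to 11.09. Enah, an actin regulator of the Ena/VASP family, was at least 3.63-fold lower and B3gnt5, which starts the chain of lacto-series glycolipids, at least 3.22-fold lower. Atp8b4, a phospholipid-transporting ATPase, and Akr1e1, an aldo-keto reductase, were at least 1.83-fold and 1.82-fold lower, since both read under 5.9 in every array of the natural receptor line. Akr1e1 was not particular to this line: SyCyR(IL-23/2A) was -2.73 below the parental line and differed from the natural receptor line by 0.02. S100a6, a calcium-binding protein, was at least 9.52-fold higher and differed by 3.84 and 3.67 from the SyCyR lines, which were near the parental line. Tspan8, a tetraspanin, was at least 11.6-fold higher at 10.40 to 10.70 against 6.05 to 6.74, but both SyCyR lines lay between, 2.17 and 1.94 above the parental line. Gask1b, a Golgi-associated protein, was at least 13.1-fold higher, with SyCyR(IL-23/2A) 1.02 above the parental line. 3830403N18Rik, at least 9.97-fold higher, was raised in all 3 receptor lines, by 3.55 and 3.25 in the SyCyR lines, and the natural receptor line did not pass the test against SyCyR(IL-23/2A) (0.52).

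Several called genes lay next to each other on a chromosome. Of 511 called genes with a known place, 164 stood in 72 groups with at most 2 measured genes between neighbours. Of all 72 groups, 50 moved in 1 direction only, as did 14 of the 18 groups of 3 or more. The groups include the introduced Il23r and Il12rb1, and others lie on chromosome 16, described below. How many such groups the same number of calls would form if placed at random was not tested. On chromosome 19, Anxa1, Aldh1a1 and Aldh1a7 rose together with 1 uncalled gene among them. Aldh1a1, retinaldehyde dehydrogenase 1, which makes retinoic acid, read 13.16, 13.29, 12.85 and 13.09 against 8.07, 8.19, 8.08 and 7.75, which is 33.6-fold higher (5.07 ± 0.11 SE, adjusted p = 2.7e-11). Aldh1a7, its close paralog, was at least 3.75-fold higher and Anxa1, annexin 1, an anti-inflammatory phospholipid-binding protein, 8.13-fold. Outside this stretch Rorb and Tmc1, its measured neighbours on either side, differed by -0.00 and 0.03. Both lay below the background level, with medians of 5.74 and 5.76 for Rorb and of 5.52 and 5.48 for Tmc1, so a difference there could be missed. Zfand5, the next gene past Tmc1, had medians of 10.88 and 10.40. It differed by 0.48 without a call, and by 0.96 in the odd arrays. In the SyCyR lines Aldh1a1 was also called above the parental line, by 1.98 and 3.13, and the natural receptor line exceeded them by 3.09 and 1.94. The bases before the start of Aldh1a7 and before the downstream of 2 annotated starts of Aldh1a1 are shown because these neighbours rose together. Both are from RefSeq on GRCm38.p6, for Aldh1a1 chr19:20601718-20601967 on the plus strand and for Aldh1a7 chr19:20727557-20727806 on the minus strand, and capitals mark bases that differ from or have no partner in the other gene:
Aldh1a1: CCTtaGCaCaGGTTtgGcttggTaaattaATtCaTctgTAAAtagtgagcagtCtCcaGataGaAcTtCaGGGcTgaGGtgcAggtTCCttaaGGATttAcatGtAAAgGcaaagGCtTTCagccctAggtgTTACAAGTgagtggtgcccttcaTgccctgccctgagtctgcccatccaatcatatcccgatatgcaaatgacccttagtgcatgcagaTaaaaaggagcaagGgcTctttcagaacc
Aldh1a7: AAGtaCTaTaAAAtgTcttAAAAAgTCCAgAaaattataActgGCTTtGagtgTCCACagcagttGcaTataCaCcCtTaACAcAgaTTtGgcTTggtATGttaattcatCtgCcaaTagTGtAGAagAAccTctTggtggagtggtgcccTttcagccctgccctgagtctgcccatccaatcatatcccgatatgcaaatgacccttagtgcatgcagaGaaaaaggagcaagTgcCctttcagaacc
Of the 250 bases, 185 were identical in a global alignment, and of the last 100 before the start only 4 differed. The unrelated pair of Anxa1 and Aldh1a1 shared 151 of 250 in the same alignment. Whether the probe sets of the 2 paralogs read each other's RNA was not tested.

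On chromosome 13 a family of placental cathepsins and cathepsin-like inhibitors behaved likewise. Ctsj, a cathepsin known from the placenta, read 12.37, 13.14, 9.84 and 11.53 against 7.08, 6.93, 6.33 and 6.52. Array 18 was the lowest in both lines, and the gene was at least 25.5-fold higher (5.01 ± 0.53 SE, adjusted p = 6.9e-05). Ctsr, of the same family, read 10.37, 10.86, 7.92 and 9.43 against 6.48 to 6.77 and was at least 6.08-fold higher. Between and beside them Ctsq, Cts6 and Cts8 differed by 0.27, 0.15 and 0.06 and had medians below 4.9 in both lines. Ctla2a and Ctla2b, which resemble the propeptide of cathepsins and inhibit them, were at least 2.12-fold and 1.52-fold higher. Unlike Ctsj, Ctla2a was highest in array 18, at 7.91, 7.54, 9.09 and 7.96 against 4.83 to 5.61. Ctsj was also 2.33 above the parental line in SyCyR(IL-23R), but not in SyCyR(IL-23/2A) (-0.56, not called). The 250 bases before the start of Ctla2b and before the upstream of 2 annotated starts of Ctla2a, chr13:60897448-60897697 and chr13:60936626-60936875 on the minus strand of the same build, are shown for the same reason, with capitals used likewise:
Ctla2a: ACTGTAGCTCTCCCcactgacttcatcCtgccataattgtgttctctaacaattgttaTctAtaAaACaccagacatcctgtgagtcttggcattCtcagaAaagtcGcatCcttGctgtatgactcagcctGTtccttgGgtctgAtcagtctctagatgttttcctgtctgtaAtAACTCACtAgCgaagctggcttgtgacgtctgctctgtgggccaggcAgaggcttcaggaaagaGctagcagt
Ctla2b: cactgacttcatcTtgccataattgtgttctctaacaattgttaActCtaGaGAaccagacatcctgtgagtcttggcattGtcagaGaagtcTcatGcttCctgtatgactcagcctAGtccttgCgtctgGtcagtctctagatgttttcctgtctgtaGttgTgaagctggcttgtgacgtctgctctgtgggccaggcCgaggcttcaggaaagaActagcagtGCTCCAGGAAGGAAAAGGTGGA
Here 209 of 250 bases were identical. Between Ctsj and Ctsr 182 were, and between Ctsj and Cts6, which was uncalled and lay below the background level in both lines, 183 were. Whether these bases bear on the calls was not tested.

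**Figure D2:**
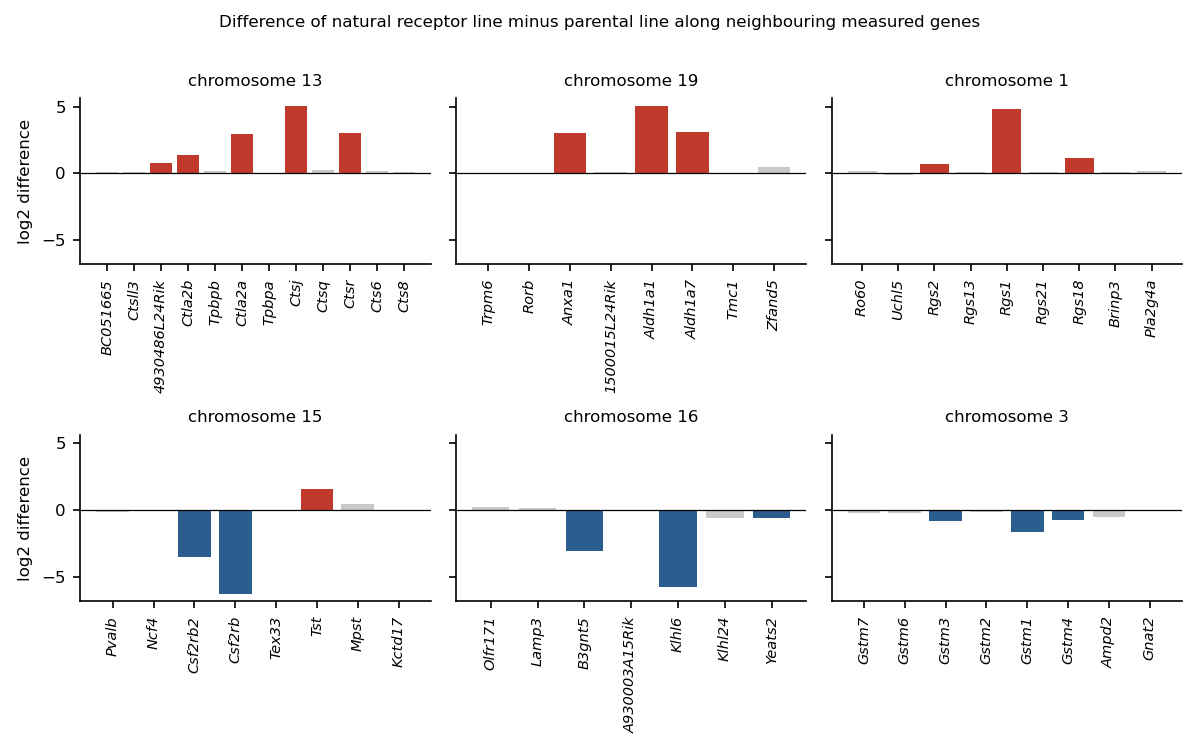
Log2 difference of natural receptor line minus parental line (y axis) in the even arrays for genes in their order along 6 chromosome stretches, with up to 2 measured genes on either side. Red bars passed the call rule higher, blue bars lower and grey bars did not pass it. Grey genes lie between called ones on chromosomes 13, 19 and 1, and Csf2rb and Csf2rb2 stand side by side at -6.26 and -3.49.

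On chromosome 1, 3 of the 16 measured regulators of G protein signaling rose (18.8%, beside 1.38% of all genes), and they were neighbours, with the uncalled Rgs13 and Rgs21 between them. These proteins speed up the hydrolysis of GTP by Gα subunits. Rgs1 read 10.39, 10.40, 9.96 and 10.81 against 5.94, 5.33, 5.48 and 5.67, at least 10.2-fold higher (4.79 ± 0.16 SE, adjusted p = 3.3e-09). Rgs18 read 12.44 to 12.65 against 11.38 to 11.45, a 2.18-fold increase with no overlap, and Rgs2 was 1.63-fold higher. In the odd arrays 2 of the 16 rose, and Rgs2 was called lower instead, by -0.65. The direction of Rgs2 thus followed the choice of arrays, and the count of 3 rests in part on that choice. Rgs1 was not particular to the natural receptor line, since SyCyR(IL-23R) exceeded the parental line by 4.41 and the 2 receptor lines differed by 0.37, which was not called. Further along that chromosome Cd48, Slamf1 and Cd84, receptors of the SLAM family that bind themselves or each other on blood cells, were 1.58-fold, at least 1.62-fold and 1.63-fold higher, although the groups overlapped for Cd84, which lost its call without any of 5 single arrays, and Cd48 lost its call without natural array 16. On chromosome 3, P2ry14, a receptor for UDP-glucose, Gpr171 and Med12l were higher by 1.11, 1.27 and 0.60. The call of Med12l was lost without any of 3 single arrays. Gpr171 was not particular to the natural receptor line. For it, SyCyR(IL-23R) was called above the parental line by 1.07, and the 2 receptor lines differed by 0.20, not called. P2ry14 and Med12l were not called against SyCyR(IL-23R) either (0.54 and 0.58). On chromosome 5 the ATP-gated channels P2rx4 and P2rx7 were lower, P2rx4 3.56-fold at 9.61, 9.63, 8.98 and 9.48 against 11.70, 11.69, 10.45 and 11.19, and P2rx7 by -0.76 with overlapping groups and a call that was lost without any of 5 single arrays. A second stretch of chromosome 3 fell: Gstm1, Gstm3 and Gstm4, glutathione transferases of the μ class, by 1.60, 0.84 and 0.77 on the log2 scale, while Gstm2 between them differed by -0.13. Gstm3 lost its call without natural array 20. These transferases are near-identical copies, and their probe sets may share RNA. The groups of neighbours were named after their values were seen.

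Interferon response genes were the list with the most calls. Of 33 measured, 10 rose (30.3%, beside 1.38% of all genes) and none fell, with a median of 0.31 beside -0.01 over all genes, and 22 of the 33 had a positive difference. These genes are switched on by interferons, or directly by IRF3 and IRF7 after viral RNA is sensed. The RNA sensors Ddx58, which encodes RIG-I, and Dhx58, which encodes LGP2, were 2.25-fold and 1.90-fold higher. Ddx58 read 10.51, 10.41, 10.07 and 10.19 against 8.79 to 9.44. Among antiviral effectors Oas2, an oligoadenylate synthetase, was 2.38-fold higher at 8.57, 9.06, 8.16 and 8.52 against 7.54, 7.51, 6.91 and 7.35, and Ifit2 2.34-fold. Irf7 itself was 1.81-fold higher at 9.03, 8.81, 8.23 and 8.61 against 8.09, 8.01, 7.51 and 7.63. Lgals3bp, Xaf1, Ifi27 and Usp18, a protease that removes ISG15 and dampens the interferon receptor, were 1.76-fold, 1.76-fold, 1.70-fold and 1.61-fold higher, and Usp18 lost its call without any of 5 single arrays. Rtp4 read 7.60, 7.70, 6.87 and 7.10 against 5.76 to 5.98, at least 1.21-fold higher, with a measured difference of 1.48 ± 0.15 (SE). None of the 10 overlapped between the lines, which also held for 558 of all 584 called probe sets, and 7.33% of all probe sets tested lay wholly higher. Several well-known members had small differences, Mx1 with 0.03, Ifit3 with 0.02, Rsad2 with -0.02 and Zbp1 with -0.12, and all 4 had no call.

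**Figure D3:**
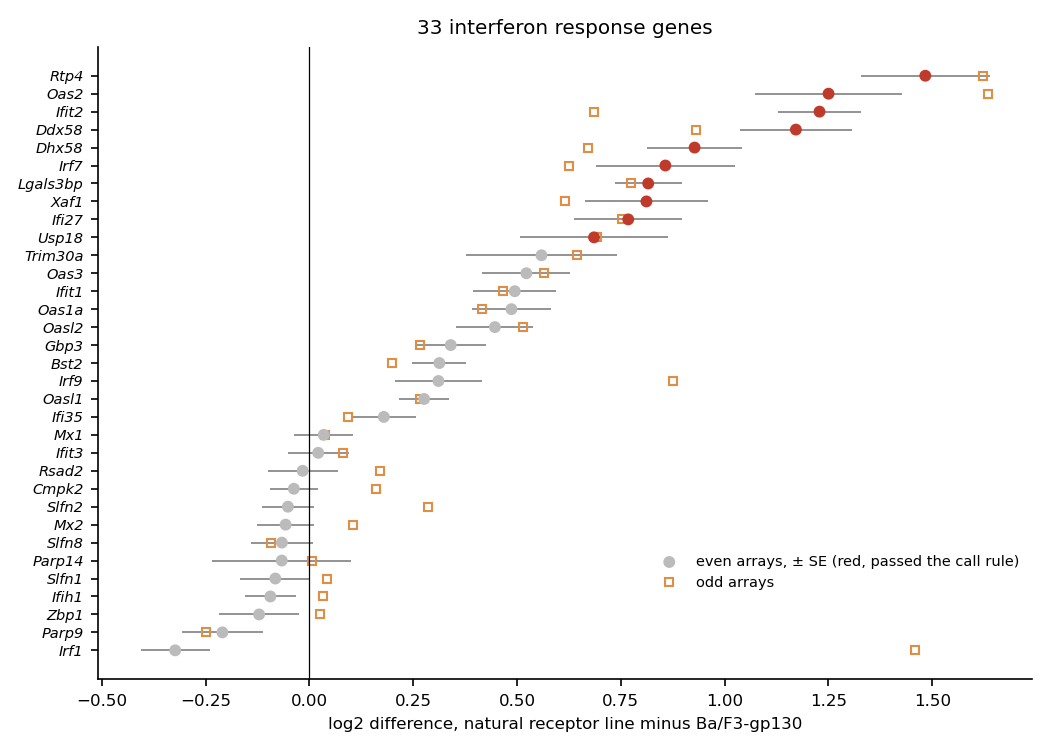
Log2 difference (x axis) of natural receptor line minus parental line for the 33 measured interferon response genes, with filled points and ± SE for the 4 and 4 even arrays and open squares for the 4 and 4 odd arrays. The 10 red points passed the call rule and lie between 0.69 and 1.48, while the odd value of Irf1 lies at 1.46 and its even value at -0.32.

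The mean of the interferon list was 7.75 to 7.95 in the arrays of the natural receptor line and 7.35 to 7.56 in those of the parental line, so the list means did not overlap. In the odd arrays 11 members rose (beside 1.77% of all genes) and none fell (beside 1.75%), with a median of 0.42. Of the 33, 10 exceeded their level in SyCyR(IL-23/2A) (beside 1.38%) and none lay below it (beside 1.3%), while against SyCyR(IL-23R) 7 were higher (beside 1.5%) and 2 lower (beside 1.66%), and SyCyR(IL-23R) itself exceeded the parental line for Usp18, by 0.74. MHC class I genes, which interferons also raise, were described by a list of 14, of which none was called and whose median was 0.05.

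Smaller groups were described in the same way, beside 1.38% of all genes called higher and 1.19% called lower. Of 18 genes of cholesterol and fatty acid synthesis, 3 rose (16.7%) and none fell, with a median of 0.27: Idi1, Lss and Cyp51, enzymes of the sterol pathway, by 0.71, 0.63 and 0.59. Their parental arrays spread more than those of the natural receptor line, Idi1 with 9.85, 9.81, 10.56 and 10.15 against 10.74 to 10.84, and in the odd arrays none of the 18 was called. Lss lost its call without parental array 16 and Cyp51 without any of 3 single arrays, and without parental array 16 or over all 8 arrays of each line only 1 of the 18 was called higher. Of 40 hematopoietic transcription factors 3 rose (7.5%) and 2 fell (5.0%). Tfec, a factor of the MiT family found in macrophages, was at least 2.25-fold higher, but SyCyR(IL-23R) exceeded the parental line by 3.07. Zeb2, a repressor of the zinc finger family, and Lmo2, a bridging factor of blood progenitors, were 2.01-fold and 1.85-fold higher. Neither was particular to the natural receptor line. Both SyCyR lines were called above the parental line for Lmo2, by 0.60 and 0.67, and the natural receptor line was called against neither. For Zeb2, SyCyR(IL-23R) was called above the parental line by 0.66, and the natural receptor line was not called against it (0.35). Runx3 was 1.65-fold lower with parental values of 11.50 to 11.51, and Mecom 1.5-fold lower with overlapping groups and a call that was lost without any of 5 single arrays. Ctss, cathepsin S, and Ifi30, a thiol reductase of the antigen processing compartment, were the 2 called among 10 MHC class II genes, both lower. Of 11 aldo-keto reductases, Akr1b8 was at least 1.89-fold lower and Akr1c13 1.59-fold higher, beside Akr1e1. Among 22 tetraspanins Tspan32, known from blood cells, read 8.75, 8.46, 7.29 and 8.13 against 6.35 to 6.70 and was at least 2.16-fold higher, besides Tspan8 and Cd37. Of 27 cathepsins and cystatins, Cst7, cystatin F, which inhibits cathepsins of immune cells, was 2.57-fold higher at 9.59 to 9.71 against 8.01 to 8.42.

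Stress and survival pathways held single calls, to be read beside the same shares of all genes. Bcl2l11, which encodes the proapoptotic protein BIM, was the single call of 14 members of the Bcl2 family, 1.64-fold higher, and it was called against both SyCyR lines. Nupr1, a stress-induced chromatin protein, was the single call of 21 amino acid response genes and was 2.20-fold lower at 7.21 to 7.53 against 8.04 to 8.69. Of 19 genes of the p53 pathway, Sesn1 and Fas were higher by 0.73 and 0.62 and Zmat3 was lower by -0.59. Fas lost its call without natural array 16 or parental array 18 and Zmat3 without any of 4 single arrays. For Fas, SyCyR(IL-23R) was called above the parental line by 0.64, and the natural receptor line differed from it by -0.02, not called. Sesn1 was called against neither SyCyR line (0.50 and 0.44). Of 22 glutathione and NRF2 genes, Mgst2, a microsomal glutathione transferase, was 2.12-fold higher, beside the lower Gstm1. Tgfbr3, a coreceptor of TGF-β, was at least 1.32-fold higher as the single call of 22 genes. It was not particular to the natural receptor line. SyCyR(IL-23/2A) was called 1.38 above the parental line, and the natural receptor line differed from it by -0.53, not called. Notch2 was 1.53-fold lower as the single call of 18 and lost its call without array 14 of either line. It was called against neither SyCyR line (-0.18 and -0.16). Tnfaip2 was 1.92-fold lower as the single call of 18 NF-κB response genes, and it was not called against SyCyR(IL-23R) (-0.36). Tek, the angiopoietin receptor, and Gzmb, granzyme B, were named after their values were seen. Tek read 9.87, 9.97, 8.95 and 9.38 against a median of 5.85 and was at least 5.65-fold higher, also against both SyCyR lines, by 3.78 and 3.48. Gzmb was 1.98-fold lower at 12.34 to 12.83 against 13.19 to 13.86, and it was called against neither SyCyR line. No gene was called among 29 cell cycle genes, whose medians included 12.33 and 12.23 for Mki67, among 22 glycolysis and hypoxia genes, among 19 Toll-like receptors and adaptors, or among 18 genes of eicosanoid synthesis and reception.

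Chromosome 16 stood apart from all others. The median difference of its 334 genes above the background level was -0.37, a 1.29-fold lower level, and 93.4% of them were lower in the natural receptor line. On the 19 other chromosomes the medians lay between -0.03 and 0.06 and the shares of lower genes between 33.9% and 60.3%. The lower level was spread along the whole chromosome: in 12 consecutive runs of 27 or 28 genes the medians lay between -0.45 and -0.28, and at least 85.7% of the genes in each run were lower. The middle of the distribution was narrow, since 63.5% of the 334 genes lay within 0.2 of the median and the quartiles were -0.50 and -0.19. Relative to the mean of each gene over the 8 arrays, the median of the chromosome was -0.18, -0.17, -0.19 and -0.15 in arrays 14, 16, 18 and 20 of the natural receptor line and 0.23, 0.18, 0.15 and 0.16 in the parental line. All 4 arrays were thus below all 4 of the parental line, by more than the spread within each line, while the same medians over the other chromosomes lay between -0.02 and 0.04.

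Most genes of this chromosome stayed under the 1.5-fold limit, and 39 of the 334 were called lower and 1 higher. The exception was Jam2, a junctional adhesion molecule, with 10.11, 10.27, 10.18 and 9.87 against 8.48, 8.40, 8.15 and 8.48, which is 3.31-fold higher. Among all genes called lower, 39 of 236 with a known place (16.5%) lay on chromosome 16, which holds 3.26% of the genes measured, and among all called higher 3 of 275 (1.09%). Klhl6 and B3gnt5, described above, are neighbours there with differences far beyond the median of the chromosome, and Tiam1, an exchange factor for Rac, was 3.24-fold lower. Coro7, a regulator of actin and Golgi traffic, was 2.12-fold lower at 9.15, 9.25, 8.57 and 9.24 against 10.36, 10.49, 9.53 and 10.15. Against the SyCyR lines the median of the chromosome was -0.35 and -0.33, and those lines themselves differed from the parental line by -0.02 and -0.02. The median was -0.45 in the odd arrays. Because this pattern was known from earlier results, it was given no test.

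**Figure D4:**
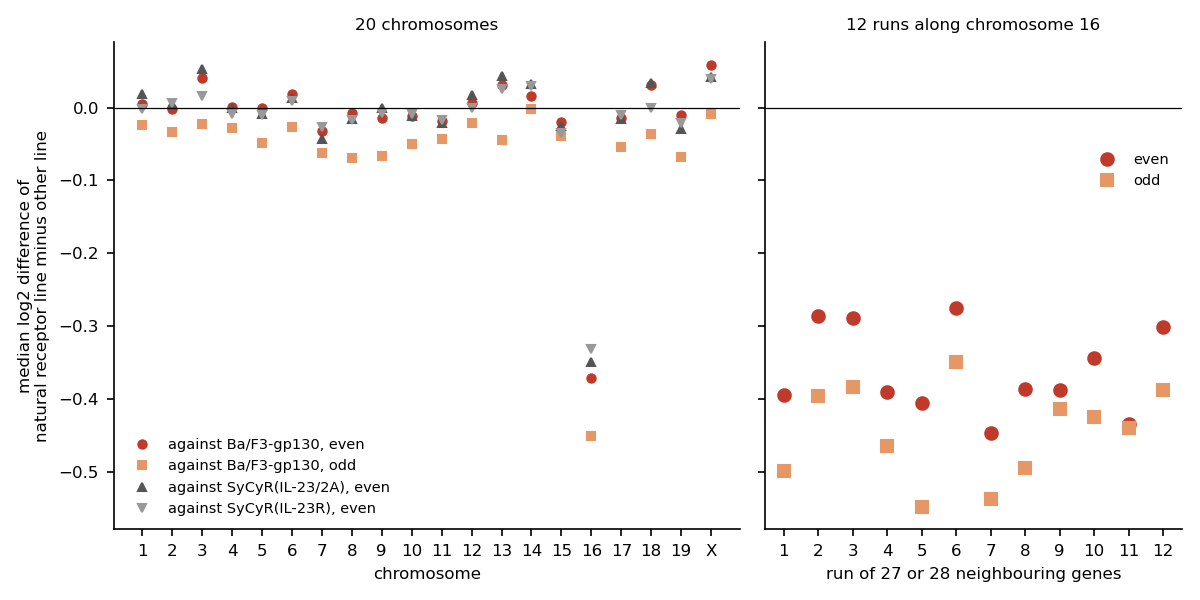
Left, median log2 difference of the natural receptor line minus another line (y axis) over genes above the background level for each of 20 chromosomes, with a symbol for each comparison. Right, the same median for 12 runs of neighbouring genes along chromosome 16 in even and odd arrays. Chromosome 16 lies between -0.45 and -0.33 in all 4 comparisons, and every run lies below -0.27.

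The odd arrays of the same lines share no array with the comparison above. There 441 probe sets were higher (1.88%) and 388 lower (1.66%), which is 3.54% of those tested. Of the 584 called in the even arrays, 463 were called in the same direction, which is 79.3% of the even and 55.9% of the odd calls, and 573 had the same sign. Il23r and Il12rb1 were higher by 6.60 and 4.41 there, F13a1 by 6.80, Aldh1a1 by 4.64 and Thbs1 by 4.21, and Csf2rb, Klhl6 and Anxa3 were lower by -5.78, -5.63 and -4.65. Thus 118 even calls were not called in the odd arrays, and 3, Rgs2, Nfil3 and Bcl6, had opposite calls. Nfil3 and Bcl6 are among the listed genes that move with the choice of arrays, so nothing is read from their opposite calls. Rgs2 is in neither list, but in the natural receptor line it read 9.47 to 9.67 in the even and 7.92 to 8.35 in the odd arrays. Nothing is read from its opposite calls either. In the natural receptor line these arrays differ in Socs3, so that values that differ between even and odd arrays follow the choice of arrays, and the difference between even and odd arrays was not tested. Rgs1 differed by 4.79 in the even and 3.00 in the odd arrays and Slamf1 by 2.40 and 3.92. B4galnt4, a glycosyltransferase, was 2.46-fold lower in the even arrays at 8.03 to 8.51 against 9.40 to 9.60, and differed by -0.21 in the odd arrays. Milr1, an inhibitory receptor of mast cells, and Prag1, a pseudokinase scaffold, differed by -1.02 and -0.89 in the even and by 0.05 and 0.32 in the odd arrays, although the even groups overlapped for Milr1, which lost its call without any of 4 single arrays. F630028O10Rik was higher by 2.09 and 0.58. These genes were named after their values were seen.

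**Figure D5:**
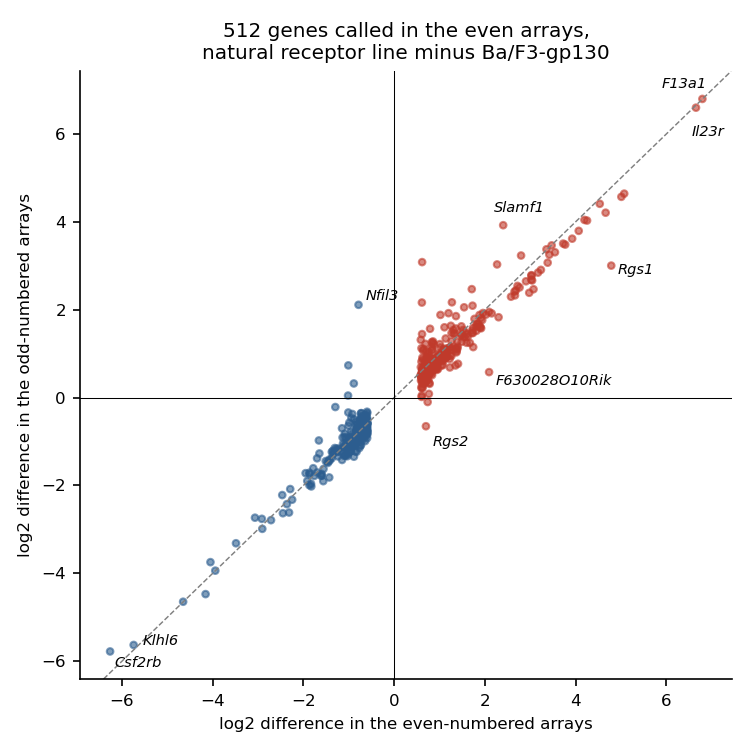
Log2 difference of natural receptor line minus parental line in the even arrays (x axis) and in the odd arrays (y axis) for the 512 genes called in the even arrays, red where higher and blue where lower. The dashed line marks equal differences; F13a1, Il23r, Csf2rb and Klhl6 lie near it, while Rgs2 (0.70 and -0.65) and Nfil3 (-0.79 and 2.11) lie in the quadrants of opposite sign.

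To see which differences set the natural receptor line apart from every other line, its even arrays were compared with those of the SyCyR lines in a fit over all 16 even arrays. In the natural receptor line 332 probe sets (1.42%) exceeded their level in SyCyR(IL-23/2A) and 270 (1.15%) lay below it, which is 2.57% of those tested. Against SyCyR(IL-23R) 349 were higher (1.49%) and 360 lower (1.54%), which is 3.03%. Of the 584 probe sets called against the parental line, 433 (74.1%) were called in the same direction against SyCyR(IL-23/2A), 365 (62.5%) against SyCyR(IL-23R) and 317 (54.3%) against both, whereas 103 (17.6%) were called against neither. These counts share the arrays of the natural receptor line and are given as counts only. Of the 24 genes with the largest differences, 21 were called in the same direction against all 3 other lines, and Rgs1, 3830403N18Rik and Akr1e1 were not. The 21 include Il23r and Il12rb1, whose probe sets showed no called rise from the receptor parts that the SyCyR lines carry. Among the 12 largest increases, Aldh1a1, Tspan8, Gask1b, Ctsj and Lcp2 were higher than in all 3 lines although at least 1 SyCyR line was itself called above the parental line. Among the 12 largest decreases, Klhl6, Rnase6 and Lgals3 were lower than in all 3 lines although SyCyR(IL-23R) was itself called below the parental line. Lcn2 and B3gnt5 differed more from SyCyR(IL-23R) than from the parental line, by -6.72 and -4.70, and SyCyR(IL-23R) lay 2.67 and 1.64 above the parental line. Between the SyCyR lines and the parental line fewer genes were called: SyCyR(IL-23/2A) exceeded the parental level at 0.246% and lay below it at 0.155%, together 0.401%, whereas SyCyR(IL-23R) exceeded it at 0.787% and lay below it at 0.552%, together 1.34%.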

How the data were processed

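Total RNA of 32 samples was hybridized to Affymetrix mouse gene arrays, and the authors deposited log2 values made with RMA in Expression Console, whose version and genome build are not given in the sources used here. Quantile normalization in RMA fixes overall intensity, so a change shared by most genes would not be seen. Detection calls were not used here. The number of arrays, 4 per group, limits precision.

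Groups came from the sample titles. The table held 35556 probe sets: 21789 with 1 symbol, 1621 with several and 12146 with none. Symbols were updated by the RefSeq table (GRCm38.p6), which matched 21698, and where probe sets shared a symbol the brightest on average stood for the gene. Differences were tested with limma 3.58.1 in R 4.3.3 (lmFit, eBayes, Benjamini-Hochberg over 23410 probe sets with a symbol, adjusted p under 0.05 and at least 1.5-fold), which was tested on simulated data. Figures and counts were made in Python 3.11.15. Named were Il23r, Il12rb1 and Il6st, the 12 largest non-overlapping calls in each direction, called members of the lists and genes said to be named after their values were seen. The members and lists were chosen with earlier results of these data known. Gene lists were described by counts and medians without a set test.

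Arrays with the same number deviated together from their line means in the even arrays (correlation over probe sets 0.112 to 0.532, against -0.376 to 0.195 for other numbers) and in the odd arrays (0.334 to 0.525), so the numbers were taken as pairs from the values, not from the labels. The pairing entered as an alternative. Further alternatives were the fit over 16 arrays, all 8 arrays of each line, a filter on dim probe sets, all probe sets, repeated quantile normalization, centring, another moderation, the methods' threshold and leaving out arrays.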

Additional observations from a re-analysis of the deposited data

Results flagged for a closer look

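Among 236 groups of 4 even arrays, made of the named genes in either line, 8 (3.39%) held an array far from the other 3, by a gap beyond Dixon's critical value for 4 samples. Chance gives about 5% of such groups. In the natural receptor line array 18 was the far one for Lmo2 (11.40 against 11.69 to 11.74, gap 0.855 of the range), Itgb3 (7.58 against 8.43 to 8.59, 0.839) and Coro7 (8.57 against 9.15 to 9.25, 0.855), and array 16 for Ifit2 (8.23 against 8.57 to 8.63, 0.858). In the parental line array 18 was the far one for Mpo (8.73 against 9.83 to 10.05, 0.836), Nupr1 (8.04 against 8.60 to 8.69, 0.857) and Xaf1 (6.71 against 7.18 to 7.20, 0.962), and array 14 for Dhx58 (7.60 against 7.40 to 7.41, 0.937). All 8 genes kept their call without any single array.

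The difference between the lines had opposite directions in the even and the odd arrays for 3 genes, with no overlap in either set. Rgs2 differed by 0.70 and -0.65, Nfil3 by -0.79 and 2.11 and Bcl6 by -1.01 and 0.73, the even value first. The difference between even and odd arrays was not tested, because it follows the choice of the arrays.

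Probe sets without a symbol were outside the comparison. When all probe sets were fitted, 59 of the 12146 without a symbol were higher in the natural receptor line (0.486%) and 221 were lower (1.82%). They are unnamed here.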

How the results depend on the processing

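With the title number as a replicate block, 330 probe sets were called higher and 270 lower in the even arrays, 584 of the 584 calls were kept, and the pairing changed no named call and no count by over 1.5 times. The other settings gave 265 to 378 higher and 218 to 301 lower, except the fit over all probe sets, which called 466 lower and includes those without a symbol. Leaving out single arrays gave 293 to 396 higher and 228 to 303 lower in the even arrays, 397 to 494 and 297 to 446 in the odd arrays, 303 to 392 and 237 to 271 against SyCyR(IL-23/2A), and 338 to 411 and 322 to 416 against SyCyR(IL-23R). Of the 584 calls, 457 were kept whichever array was left out. Interferon response genes called higher numbered 9 to 12 without single arrays, and list members overall 45 to 62 higher and 23 to 38 lower. The median of chromosome 16 was -0.38 to -0.36 without single arrays, -0.41 over all 8 arrays of each line, -0.32 with each array centred on its median and -0.11 with dim genes included (648 genes). No named gene reversed. Of 117 named calls, 20 were lost without at least 1 array and 23 under another setting, mostly over all 8 arrays of each line (13), over all probe sets (10) or with trend and robust moderation (10). Signals under the background level limit every fold given as a lower bound.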
